A study of Sus scrofa with 35 samples.

Results

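The genes described here are 10 genes of oxygen sensing and of the response to low oxygen, HIF1A, EPAS1, ARNT, EGLN1, EGLN2, EGLN3, HIF1AN, VHL, VEGFA and ADM, as measured in whole blood of pigs under heat stress. They were chosen by name: every probe of the array whose gene name, in capitals, equalled one of the 10 was taken, whatever its value. Of the 10 genes, 9 had a probe, with 27 probes in all, and VHL, for which no probe carried the name, was not analysed here. The authors' table of log2 intensities, which holds 39072 probes and 28066 distinct names of genes or sequence records, held 21 of the 27 probes and at least 1 probe of each of the 9 genes. HIF1A, ARNT and EGLN1 had 4 probes each in it, EPAS1, EGLN2 and ADM had 2, and EGLN3, HIF1AN and VEGFA had 1. Intensities of different probes are not on one scale, because each probe binds with its own strength, so a level was compared between pigs for the same probe. Where a gene is read by its brightest probe, that ranking chose the probe and is no comparison of RNA amounts.

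Hypoxia-inducible factors (HIF) are pairs of an alpha subunit, HIF-1 alpha (HIF1A) or HIF-2 alpha (EPAS1), and the stable partner ARNT. When oxygen is present, prolyl hydroxylases (EGLN1, EGLN2 and EGLN3) mark the alpha subunit for destruction by the VHL ubiquitin ligase, and the asparagine hydroxylase HIF1AN blocks its activity as a transcription factor, so much of the regulation acts on the protein and is not visible in RNA. In low oxygen the alpha subunit persists and raises the transcription of genes such as VEGFA, the vascular endothelial growth factor, ADM, the vasodilator peptide adrenomedullin, and EGLN3. In blood, HIF-1 alpha is known for its part in the metabolism of white cells, and EPAS1 for the control of red cell formation through the kidney hormone erythropoietin.

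The study asked how blood of growing pigs responds to a warm climate. Total RNA of whole blood of 35 castrated males was hybridised on one-colour arrays, 1 array per pig. The pigs were Creole (CR, a local breed), Large White (LW, a commercial breed) or F1 of these 2 breeds. They were sampled either at 24 °C (thermoneutral, TN) or after up to 5 d of heat stress (HS). The sample labels give the HS temperature as 30 °C and the protocol as 32 °C. The groups were CR TN (5 pigs), CR HS, F1 TN, F1 HS, LW TN and LW HS (6 pigs each). According to the methods of the study, pigs of both climates had been moved to the same climatic room before the temperature rose. The TN pigs were slaughtered before it rose, and some HS pigs had 1 day less than 5 d of exposure. Pigs of a breed shared pens, each pen was slaughtered at 1 temperature, and littermates were spread over pens. Climate thus cannot be told apart from day of sampling. A p-value here treats pigs that share parents, a pen or a day of slaughter as independent. The age of single pigs, their litter, pen and day of slaughter are not in the labels.

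Markers of red cells (HBB, a globin), neutrophils (S100A8), monocytes (CD14), T cells (CD3E) and B cells (CD79A) were well above background on all 35 arrays. Between 55.2% and 68.0% of all probes were well above background per array, and the arrays lay on 5 slides of 4 to 8 arrays. Each of 4 slides held both climates of all breeds, and the remaining slide had too few groups for a climate effect of its own. In a mixture of cells, fewer cells of a type and less RNA per cell cannot be told apart.

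Several of these genes were read by more than 1 probe, and whether a gene passed the test depended on the probe. The probes that the results turn on are therefore printed here as 60 bases from 5′ to 3′. Capitals mark bases shared between probes of the same gene. The probes named HIF1A hold 3 distinct sequences, because A_72_P280249 and O277 share 57 bases and are close to 1 measurement.
HIF1A A_72_P280249: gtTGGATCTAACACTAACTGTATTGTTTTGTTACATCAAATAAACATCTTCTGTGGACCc
HIF1A O277: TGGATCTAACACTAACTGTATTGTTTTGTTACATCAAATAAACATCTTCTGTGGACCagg
HIF1A A_72_P213487: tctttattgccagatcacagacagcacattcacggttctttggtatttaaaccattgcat
HIF1A A_72_P585741: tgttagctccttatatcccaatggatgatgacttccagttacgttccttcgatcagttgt
EGLN1 and EGLN2 were read by probes that did not overlap.
EGLN1 A_72_P590364: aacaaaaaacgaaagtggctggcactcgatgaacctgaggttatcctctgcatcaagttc
EGLN1 A_72_P121321: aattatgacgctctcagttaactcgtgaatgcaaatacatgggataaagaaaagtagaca
EGLN1 A_72_P292179: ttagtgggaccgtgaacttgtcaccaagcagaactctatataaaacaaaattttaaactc
EGLN1 A_72_P532618: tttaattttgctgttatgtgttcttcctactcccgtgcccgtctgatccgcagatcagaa
EGLN2 A_72_P323278: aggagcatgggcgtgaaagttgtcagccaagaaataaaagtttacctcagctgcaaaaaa
EGLN2 O9728: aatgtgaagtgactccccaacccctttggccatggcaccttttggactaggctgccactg
The single probe named HIF1AN, a pair named VEGFA that overlaps and both probes named ADM in the authors' table were the following.
HIF1AN O14947: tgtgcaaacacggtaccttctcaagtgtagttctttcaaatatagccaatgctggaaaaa
VEGFA A_72_P414353: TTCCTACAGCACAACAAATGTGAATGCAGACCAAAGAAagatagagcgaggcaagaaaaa
VEGFA O11835: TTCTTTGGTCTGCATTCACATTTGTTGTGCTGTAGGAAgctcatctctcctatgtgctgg
ADM A_72_P146551: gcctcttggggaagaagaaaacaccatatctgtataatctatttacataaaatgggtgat
ADM O11846: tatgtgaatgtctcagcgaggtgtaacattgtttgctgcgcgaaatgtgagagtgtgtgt
The pair named VEGFA shares 38 bases in opposite orientation, shown in capitals, so the 2 probes face opposite strands. O11835 was well above background on 1 of 35 arrays and A_72_P414353 on 16. An unnamed probe of the array had the same 60 bases as HIF1A A_72_P213487, and the same held for ARNT A_72_P175836, ADM A_72_P146551 and VEGFA A_72_P441494.

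Across the 3 breeds, the probes that passed the test were of the oxygen-sensing hydroxylases EGLN1 and EGLN2, the inhibitor HIF1AN and the alpha subunit HIF1A. These probes were higher in HS than in TN pigs by 10.2% to 23.2%. None of them passed without F1 pigs or with the mean of erythroid genes in the model, as given below. Of the 21 probes, 6 were higher in HS at an adjusted p under 0.05 (limma, breed and climate in the model, 35 pigs, Benjamini-Hochberg over 39072 probes) and 0 were lower, while 9 had an unadjusted p under 0.05. These 6 were both EGLN2 probes, 2 of 4 EGLN1 probes, 1 of 4 HIF1A probes and the HIF1AN probe. The same test called 34.8% of all probes in either direction and 20.1% as higher in HS, beside 28.6% of the member probes, all of them higher in HS. The median change of the 21 probes was 0.13 on the log2 scale, against 0.06 over all probes.

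EGLN2, the prolyl hydroxylase PHD1, had the largest change among the probes of these genes. For A_72_P323278, the group means (log2 intensity, mean ± SD) were 12.71 ± 0.23 in CR TN and 13.03 ± 0.29 in CR HS, 12.68 ± 0.29 in F1 TN and 13.10 ± 0.26 in F1 HS, and 12.81 ± 0.17 in LW TN and 12.98 ± 0.12 in LW HS. In CR, the log2 intensities were 12.82, 12.38, 12.95, 12.57 and 12.82 in the 5 TN pigs, and 12.50 to 13.37 with a median of 13.08 in the 6 HS pigs. In F1, they ran from 12.25 to 13.04 with a median of 12.70 in the 6 TN pigs, and from 12.79 to 13.45 with a median of 13.17 in the 6 HS pigs. In LW, they ran from 12.57 to 13.08 with a median of 12.81 in the 6 TN pigs, and from 12.79 to 13.15 with a median of 12.95 in the 6 HS pigs. The climates overlapped in every breed, although 16 of 18 HS pigs were above the TN mean of their breed and 1 CR HS pig, at 12.50, was below 4 of the 5 CR TN pigs. HS minus TN was 0.30 (SE 0.080, adjusted p = 0.00546) on the log2 scale, a rise of 23.2%. Within the 4 slides that held both climates the difference was 0.16 to 0.38. For the second probe, O9728, the difference was 0.14 (SE 0.055, adjusted p = 0.0468). It was smaller, and its LW groups did not overlap, with 12.25 to 12.41 in TN and 12.45 to 12.69 in HS. The difference within LW did not pass the test (0.16, SE 0.092, limma adjusted p = 0.598). The share of all probes without overlap in LW was not counted. The CR means were 12.37 ± 0.19 in TN and 12.37 ± 0.17 in HS. The call of O9728 rested on a narrow margin: with slide as a block the value was 0.14 (adjusted p = 0.0543), within slides it ranged from -0.018 to 0.24, and it passed the test in 11 of the 35 fits that left out 1 pig, with values from 0.12 to 0.16 and adjusted p from 0.0196 to 0.0834.

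EGLN1, the main prolyl hydroxylase PHD2, passed the test with 2 of its 4 probes. A_72_P590364 differed by 0.23 (SE 0.075, adjusted p = 0.0197) and A_72_P121321 by 0.18 (SE 0.062, adjusted p = 0.0244), and neither lost the call when any 1 pig was left out. Within slides the first ranged from 0.14 to 0.29 and the second from 0.0022 to 0.31, so A_72_P121321 showed almost no difference on 1 of 4 slides. The CR pigs had log2 intensities of 8.74, 8.03, 8.73, 8.30 and 8.36 in the 5 TN pigs, and of 8.05 to 8.78 with a median of 8.57 in the 6 HS pigs. The F1 pigs ranged from 8.08 to 8.57 with a median of 8.30 in the 6 TN pigs, and from 8.41 to 8.92 with a median of 8.72 in the 6 HS pigs. The LW pigs ranged from 8.29 to 8.48 with a median of 8.42 in the 6 TN pigs, and from 8.33 to 8.89 with a median of 8.62 in the 6 HS pigs. These values of A_72_P590364 show HS pigs above the TN mean of their breed in 15 of 18 cases, with a wide TN spread in CR and a narrow one in LW. The brightest probe, A_72_P532618, differed by 0.13 (SE 0.064, adjusted p = 0.0997) and A_72_P292179 by 0.18 (SE 0.094, adjusted p = 0.133), so neither passed the test. A_72_P532618 passed with array weights (0.15, adjusted p = 0.0332) and without CR HS pig 1 (0.16, adjusted p = 0.0308). All 4 probes pointed the same way in the model across breeds, and their mean per pig rose by 0.18 (SE 0.065, limma adjusted p = 0.0320). EGLN3, the prolyl hydroxylase PHD3 and itself a HIF target gene, did not pass the test, with 0.014 (SE 0.088, adjusted p = 0.912). Among CR pigs, log2 values of 6.24, 6.14, 5.64, 6.17 and 5.69 in the 5 TN pigs stood beside 5.90 to 6.46 with a median of 6.03 in the 6 HS pigs. Among F1 pigs, values lay at 5.52 to 6.05 with a median of 5.80 in the 6 TN pigs, and 5.66 to 6.31 with a median of 6.07 in the 6 HS pigs. Among LW pigs, values lay at 5.63 to 6.38 with a median of 5.94 in the 6 TN pigs, and 5.41 to 5.86 with a median of 5.68 in the 6 HS pigs. The LW HS pigs all lay below the LW TN mean, and the CR and F1 pigs were spread on both sides of theirs.

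**Figure D1:**
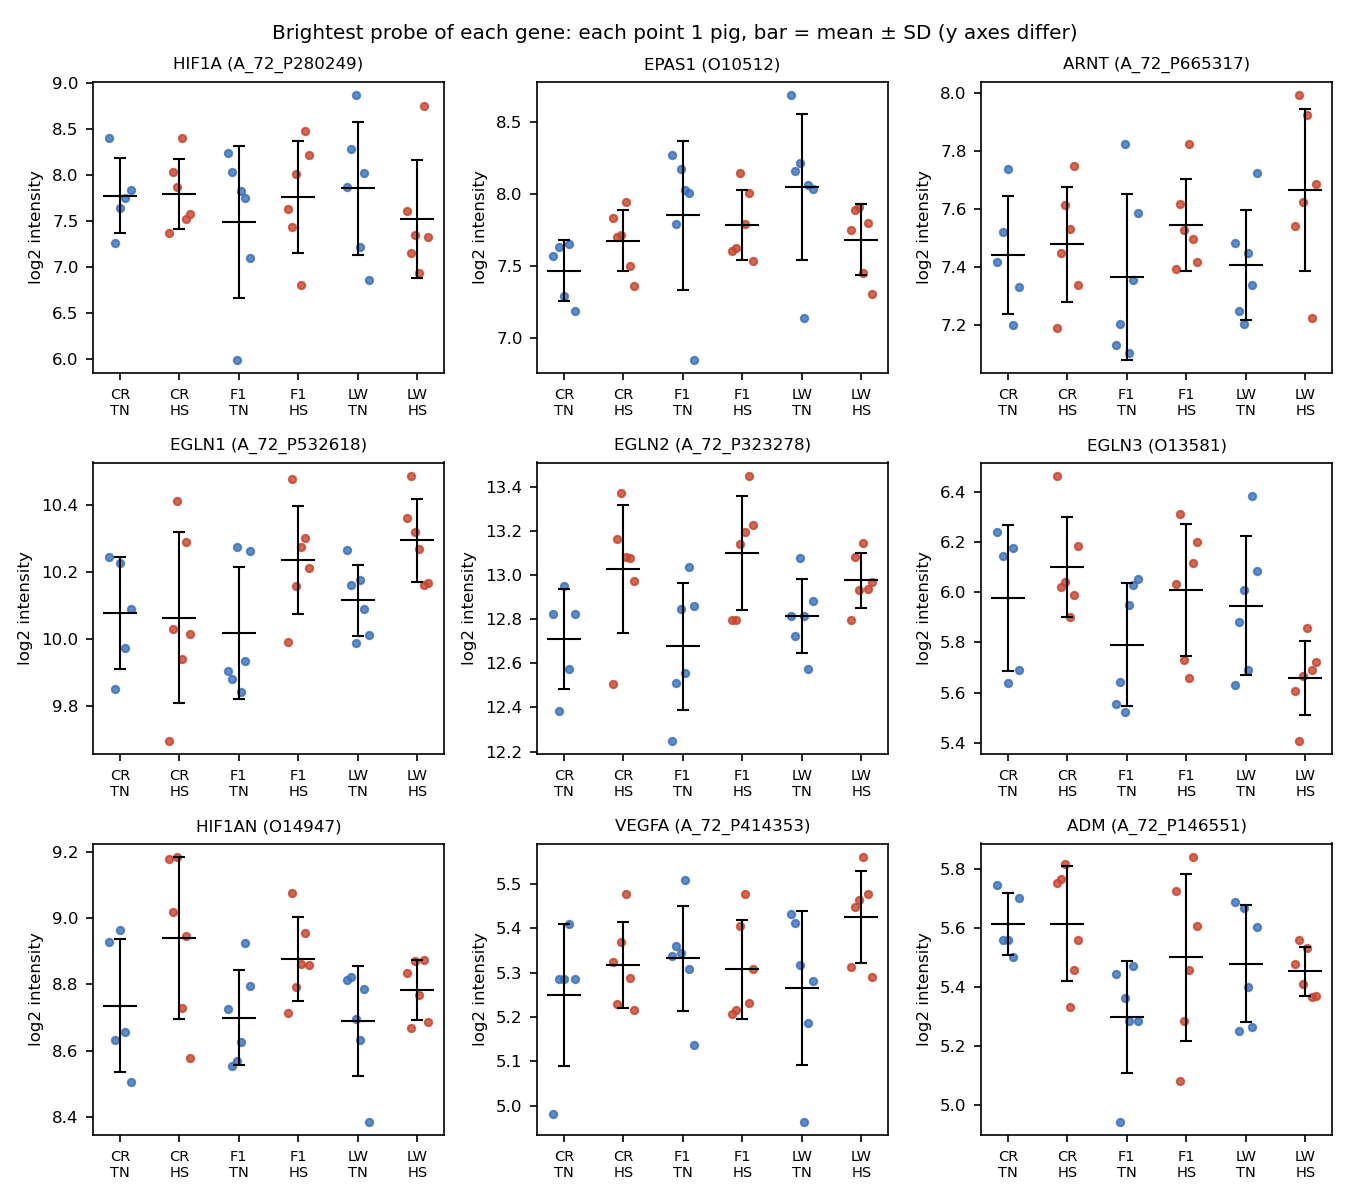
Log2 intensity (y axis, separate scale per gene) in the 6 groups (x axis) for the brightest probe of each of 9 genes; each point is 1 pig, blue TN and red HS, with the mean and SD in black. EGLN2 values are higher in HS in all 3 breeds but overlap, and HIF1A spreads from 5.99 to 8.87 within the TN pigs alone.

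HIF1AN, the asparagine hydroxylase that holds HIF inactive, was higher in HS by 0.16 (SE 0.060, adjusted p = 0.0412). In CR, the log2 intensities were 8.93, 8.63, 8.96, 8.66 and 8.50 in the 5 TN pigs, and 8.58 to 9.19 with a median of 8.98 in the 6 HS pigs. Values in F1 spanned 8.56 to 8.93 with a median of 8.68 in the 6 TN pigs, and 8.71 to 9.08 with a median of 8.86 in the 6 HS pigs. Values in LW spanned 8.39 to 8.82 with a median of 8.74 in the 6 TN pigs, and 8.67 to 8.87 with a median of 8.80 in the 6 HS pigs. The groups overlapped in each breed, 14 of 18 HS pigs were above the TN mean of their breed, and the within-slide differences were 0.067 to 0.29. Its call was lost in 18 of the 35 fits that left out 1 pig, with values from 0.14 to 0.18 and adjusted p from 0.0192 to 0.0696.

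The alpha subunit HIF1A passed the test with 1 of its 4 probes, A_72_P585741. Its heat effect was not shown to differ from that of A_72_P280249, as given below. A_72_P585741 was higher in HS by 0.26 (SE 0.082, adjusted p = 0.0164), or 19.4%, while A_72_P280249 differed by -0.015 (SE 0.20, adjusted p = 0.961), O277 by -0.11 (SE 0.19, adjusted p = 0.667) and A_72_P213487 by 0.081 (SE 0.10, adjusted p = 0.54). For A_72_P585741, the group means were 6.85 ± 0.36 and 6.87 ± 0.21 in CR TN and HS, 6.72 ± 0.23 and 7.04 ± 0.12 in F1, and 6.79 ± 0.29 and 7.19 ± 0.12 in LW. The HS mean was thus above the TN mean in F1 and LW, and nearly level with it in CR, where leaving out CR TN pig 4 turned the difference from 0.021 to -0.14. The CR pigs had log2 intensities of 6.89, 6.95, 7.16, 6.23 and 7.03 in the 5 TN pigs, and of 6.60 to 7.08 with a median of 6.95 in the 6 HS pigs. In F1, they ran from 6.40 to 7.06 with a median of 6.72 in the 6 TN pigs, and from 6.89 to 7.23 with a median of 7.04 in the 6 HS pigs. In LW, they ran from 6.50 to 7.28 with a median of 6.77 in the 6 TN pigs, and from 7.03 to 7.37 with a median of 7.19 in the 6 HS pigs. All 12 HS pigs of F1 and LW were above the TN mean of their breed, yet in both breeds the highest TN pig reached into the HS range, and CR means differed by 0.02. Within slides the difference was -0.085 to 0.73, with the sign turned on 1 slide of 4. The mean of the 4 probes changed by 0.053 (SE 0.12, limma adjusted p = 0.756).

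The other 3 HIF1A probes varied widely between pigs of the same group and in the same pigs. In F1 TN, A_72_P280249 ran from 5.99 to 8.23 with a median of 7.78, and in LW TN from 6.86 to 8.87 with a median of 7.94. The spread within these groups exceeded every difference between group means, and all groups overlapped. After subtracting group means, A_72_P280249 correlated over the 35 pigs with O277 (r = 0.99, rho = 0.99) and with A_72_P213487 (r = 0.88, rho = 0.84), each with a permutation p of 1e-05, the smallest that 100000 resamples can give. With A_72_P585741, in contrast, r was -0.041 (permutation p = 0.823) and rho was -0.039 (permutation p = 0.835). These are 3 of 21 pairs of probes of the same gene that were compared, and after Benjamini-Hochberg adjustment over the 21 pairs p for r was 3.5e-05 for the first 2 and 0.864 for the last. Without the 2 pigs farthest from the median of A_72_P280249, the same r values were 0.99, 0.85 and -0.11, and with slide removed 0.99, 0.88 and -0.11. Per pig, A_72_P585741 minus A_72_P280249 was higher in HS than TN by 0.26 on average over breeds, which did not pass a two-sided permutation of climate within breeds (p = 0.252, 100000 resamples).

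**Figure D2:**
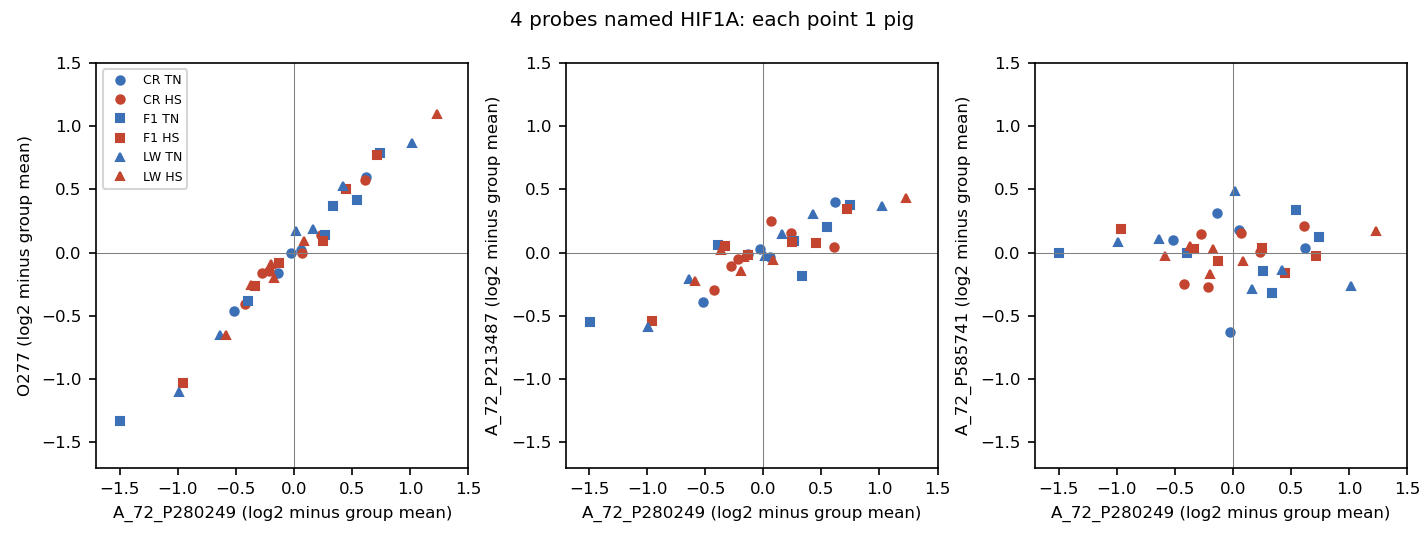
Log2 intensity minus the group mean for HIF1A probe A_72_P280249 (x axes) against each of the other 3 HIF1A probes (y axes); each point is 1 of 35 pigs, shape gives the breed and colour the climate. O277 (r = 0.99) and A_72_P213487 (r = 0.88) follow it and A_72_P585741 (r = -0.041) does not.

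EPAS1, the alpha subunit of HIF-2, passed the test with neither probe, and ARNT, the shared partner of both alpha subunits, with none of 4. EPAS1 O10512 differed by -0.083 (SE 0.12, adjusted p = 0.605) and A_72_P441713 by -0.081 (SE 0.095, adjusted p = 0.515). Among CR pigs, log2 values of 7.57, 7.63, 7.29, 7.65 and 7.19 in the 5 TN pigs stood beside 7.36 to 7.94 with a median of 7.71 in the 6 HS pigs. The F1 pigs ranged from 6.85 to 8.27 with a median of 8.02 in the 6 TN pigs, and from 7.54 to 8.15 with a median of 7.71 in the 6 HS pigs. The LW pigs ranged from 7.14 to 8.69 with a median of 8.11 in the 6 TN pigs, and from 7.31 to 7.91 with a median of 7.78 in the 6 HS pigs. HS pigs of CR leaned above and those of LW below their TN mean (5 of 6 above in CR, 0 of 6 in LW), with overlap in each breed. ARNT A_72_P443508 and A_72_P665317 differed by 0.19 (SE 0.084, adjusted p = 0.0778) and 0.16 (SE 0.077, adjusted p = 0.095), A_72_P175836 by 0.12 (SE 0.068, adjusted p = 0.16), and the dim O5420, well above background on 21 of 35 arrays, by -0.085 (SE 0.10, adjusted p = 0.502). In CR, the log2 intensities were 7.36, 7.51, 7.60, 6.90 and 7.38 in the 5 TN pigs, and 6.93 to 7.80 with a median of 7.34 in the 6 HS pigs. Among F1 pigs, values lay at 7.05 to 7.71 with a median of 7.44 in the 6 TN pigs, and 7.33 to 8.01 with a median of 7.58 in the 6 HS pigs. Among LW pigs, values lay at 7.10 to 7.72 with a median of 7.30 in the 6 TN pigs, and 7.50 to 7.82 with a median of 7.69 in the 6 HS pigs. For A_72_P443508 all 6 LW HS pigs and 5 of 6 F1 HS pigs were above the TN mean of their breed, against 3 of 6 in CR, and the groups overlapped in each. The call was near the threshold for both bright ARNT probes: array weights gave 0.21 (adjusted p = 0.0220) for A_72_P443508, 0.21 (0.0470) without CR TN pig 3 and 0.22 (0.0270) without CR HS pig 1. For A_72_P665317, array weights gave 0.19 (0.0277) and normexp background correction 0.18 (0.0361), and leaving out CR TN pig 3, F1 TN pig 3 or LW HS pig 5 gave 0.19 (0.0499, 0.0438 and 0.0493). With group means subtracted, O5420 did not follow the other ARNT probes between pigs (r = 0.16 to 0.18). Among those other probes r was 0.59 to 0.83. Which strand O5420 reads was not tested.

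VEGFA and ADM, the secreted products downstream of HIF, were close to the limit of detection in blood. VEGFA A_72_P414353 was well above background on 16 of 35 arrays, 6 of them in LW HS, and differed between climates by 0.067 (SE 0.051, adjusted p = 0.301). The CR pigs had log2 intensities of 4.98, 5.29, 5.29, 5.41 and 5.29 in the 5 TN pigs, and of 5.22 to 5.48 with a median of 5.31 in the 6 HS pigs. Values in F1 spanned 5.14 to 5.51 with a median of 5.34 in the 6 TN pigs, and 5.21 to 5.48 with a median of 5.27 in the 6 HS pigs. Values in LW spanned 4.96 to 5.43 with a median of 5.30 in the 6 TN pigs, and 5.29 to 5.56 with a median of 5.46 in the 6 HS pigs. These ranges overlap in every breed and lie within less than 1 log2 unit of each other. The 3 VEGFA probes outside the authors' table were well above background on 9, 1 and 0 of 35 arrays, the 2 such EPAS1 probes on 15 and 3, and the EGLN1 probe O10683 on 3. ADM was well above background on 26 of 35 arrays with A_72_P146551 and on 16 with O11846, and differed by 0.060 (SE 0.068, adjusted p = 0.499) and 0.15 (SE 0.086, adjusted p = 0.156) across breeds. O11846 is described by pig because it was called in F1 alone. Among CR pigs, log2 values of 5.66, 5.25, 5.68, 5.38 and 5.84 in the 5 TN pigs stood beside 5.32 to 5.82 with a median of 5.64 in the 6 HS pigs. In F1, they ran from 4.76 to 5.20 with a median of 5.11 in the 6 TN pigs, and from 5.01 to 5.90 with a median of 5.49 in the 6 HS pigs. In LW, they ran from 5.07 to 5.41 with a median of 5.30 in the 6 TN pigs, and from 5.11 to 5.51 with a median of 5.20 in the 6 HS pigs. The F1 TN pigs were lowest, with a mean of 5.06, and none of those 6 arrays was well above background (limma adjusted p for HS minus TN in F1 = 0.0148). With these TN arrays raised to the lowest value above background on the same array, the F1 HS mean of 5.49 was 1.19-fold above F1 TN. Only 4 of the 6 F1 HS arrays measured the probe above background, so this is no strict lower bound. The other probe, A_72_P146551, did not pass in F1 (0.20, SE 0.11, limma adjusted p = 0.158).

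**Figure D3:**
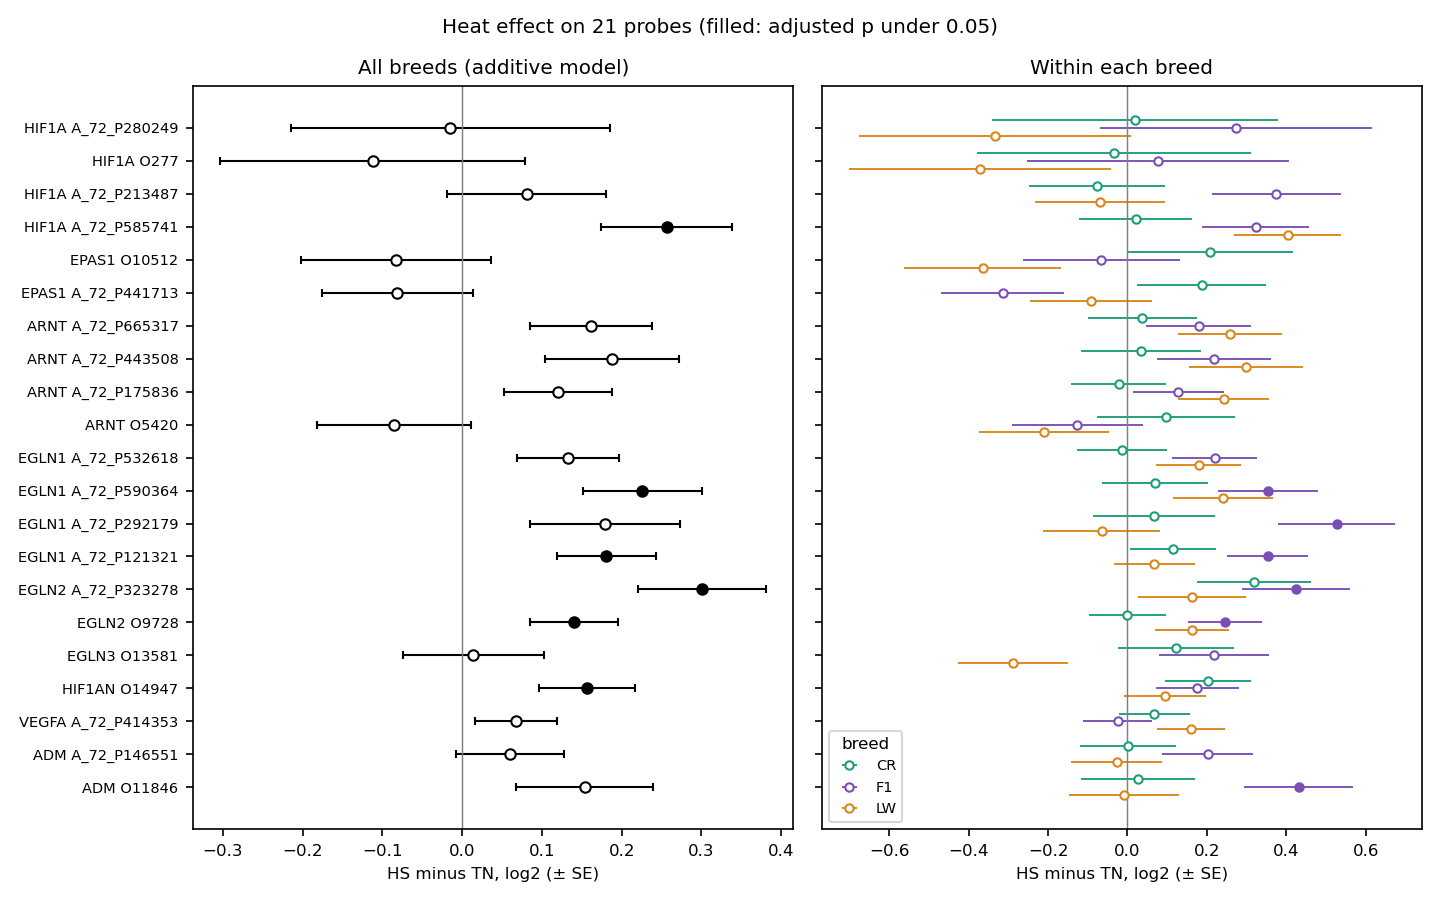
HS minus TN (x axis, log2, ± SE) for the 21 probes (y axis), on the left for all breeds together and on the right within CR, F1 and LW; filled symbols have an adjusted p under 0.05. The 6 filled symbols on the left are HIF1A A_72_P585741, 2 EGLN1 probes, both EGLN2 probes and HIF1AN, and on the right every filled symbol belongs to F1.

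Within breeds, calls were made in F1 pigs and not in the others, and the difference between breeds was not itself significant. In F1, 6 of 21 probes were higher in HS and 0 lower (limma over the 6 group means, 35 pigs), beside 38.7% of all probes called in either direction and 20.8% called higher. They were EGLN1 A_72_P292179, 0.53 (SE 0.15, adjusted p = 0.00633), A_72_P121321, 0.35 (SE 0.10, adjusted p = 0.00812), and A_72_P590364, 0.35 (SE 0.13, adjusted p = 0.0273), then EGLN2 A_72_P323278, 0.42 (SE 0.14, adjusted p = 0.0156), and O9728, 0.25 (SE 0.092, adjusted p = 0.0348), and the ADM probe O11846 given above. A_72_P292179 had the largest difference in F1 and is described by pig. The F1 pigs ranged from 7.54 to 8.13 with a median of 7.63 in the 6 TN pigs, and from 7.87 to 8.70 with a median of 8.26 in the 6 HS pigs. In CR, the log2 intensities were 8.35, 7.54, 8.41, 7.97 and 7.94 in the 5 TN pigs, and 7.67 to 8.40 with a median of 8.15 in the 6 HS pigs. The LW pigs ranged from 7.93 to 8.21 with a median of 8.09 in the 6 TN pigs, and from 7.81 to 8.24 with a median of 8.05 in the 6 HS pigs. The 6 F1 HS pigs were all above the F1 TN mean but 2 of them fell within the TN range, and the differences in CR and LW were 0.066 and -0.065. HIF1A A_72_P213487, with 0.38 (SE 0.16, adjusted p = 0.0651), and A_72_P585741, with 0.32 (SE 0.14, adjusted p = 0.0571), did not pass in F1. The first passed with array weights (0.38, adjusted p = 0.0426) and without F1 TN pig 1 (0.45, 0.0389), F1 HS pig 4 (0.48, 0.0183) or LW TN pig 6 (0.38, 0.0496), and the second with slide as a block (0.34, 0.0465) and without LW TN pig 1 (0.32, 0.0426), F1 TN pig 2 (0.39, 0.0311) or CR TN pig 4 (0.32, 0.0308). Of the calls in F1, those of EGLN1 A_72_P590364 and EGLN2 O9728 were each lost in 6 of the 35 fits that left out 1 pig (adjusted p up to 0.0710 and 0.102), and that of EGLN2 A_72_P323278 without F1 TN pig 1 (0.34, adjusted p = 0.0553) or F1 HS pig 5 (0.35, 0.0532). Without F1 HS pig 5, only 2 of the 21 probes remained called in F1, EGLN1 A_72_P292179 (0.44, adjusted p = 0.0255) and A_72_P121321 (0.30, adjusted p = 0.0297).

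In CR pigs 0 of 21 probes passed, beside 0% of all probes (limma, lowest adjusted p among members = 0.557), and 1 had an unadjusted p under 0.05. The largest CR difference was EGLN2 A_72_P323278, with 0.32 (SE 0.14, adjusted p = 0.557). In LW pigs 0 of 21 passed as well, beside 0% of all probes, with 4 at an unadjusted p under 0.05. The largest rise in LW was HIF1A A_72_P585741, with 0.40 (SE 0.14, adjusted p = 0.563), and all 6 LW HS pigs were above the LW TN mean. The interaction of breed and climate was passed by 0 of 21 probes and 0% of all probes (limma F test, lowest member adjusted p = 0.279), while 2 member probes, EGLN1 A_72_P292179 and EGLN3 O13581, had an unadjusted p under 0.05. The heat effect on EGLN1 A_72_P292179 was larger in F1 than in LW by 0.59 (SE 0.21, adjusted p = 0.123), and that on EGLN3 by 0.51 (SE 0.20, adjusted p = 0.144). Neither difference passed the test, so the calls in F1 are not shown to be particular to F1.

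None of these genes passed the test between breeds. CR minus LW, F1 minus CR and F1 minus LW each called 0 of 21 probes (limma, breed and climate in the model), beside 1.08%, 0.184% and 0.0256% of all probes, and 2, 2 and 0 member probes had an unadjusted p under 0.05. ADM O11846 was the nearest, higher in CR than in LW by 0.31 (SE 0.11, adjusted p = 0.188), and it passed only with array weights (0.33, SE 0.095, adjusted p = 0.0388). CR pigs had 5.56 ± 0.24 and 5.59 ± 0.23 in TN and HS, and LW pigs 5.26 ± 0.17 and 5.25 ± 0.16, with arrays above background in 9 of 11 CR and 3 of 12 LW pigs. EGLN3 O13581, the other probe with an unadjusted p under 0.05 for CR minus LW, differed by 0.24 (SE 0.11, adjusted p = 0.424). EPAS1 O10512 was on average lower in CR than in LW, with a CR minus LW difference of -0.28 (SE 0.15, adjusted p = 0.546), which did not pass.

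Markers of red cells moved with climate, mostly lower in HS, and the values of all cell lists stand beside every heat effect above. Called shares in the platelet, neutrophil, T cell and monocyte lists were below that of all probes. Of 19 measured erythroid genes, 9 were lower and 1 was higher in HS, with a median of -0.67 on the log2 scale. The mean over the erythroid genes ranged from 10.55 to 12.38 (log2 intensity) in F1 TN and from 9.17 to 10.87 in F1 HS, against 10.08 to 11.41 and 9.71 to 11.33 in CR and 10.61 to 11.41 and 10.22 to 11.02 in LW. The group means were furthest apart in F1, at 11.36 and 10.28. Of 12 neutrophil genes 1 was lower (ARG1), of 7 monocyte genes 2 were higher, of 8 T cell genes 2 and of 7 B cell genes 3 were higher, and of 5 platelet genes 0 passed. Of 4 endothelial genes 2 were higher (PECAM1, 0.51, and TIE1, 0.32), with a list median of 0.41, above those of the other cell lists. For all probes the shares were 34.8% called, 20.1% higher and 14.7% lower. The called share was 52.6% in the erythroid list, 50% in the endothelial, 42.9% in the B cell, 28.6% in the monocyte, 25% in the T cell and 8.33% in the neutrophil list. The mean of the T cell genes ranged from 10.63 to 10.97 in F1 TN and from 10.87 to 11.50 in F1 HS, 10.49 to 11.37 and 10.40 to 11.42 in CR, and 11.02 to 11.79 and 11.19 to 11.43 in LW. None of the measured markers of these lists was at 0, since every array spot has a signal. With the erythroid mean in the model, 0 of 21 member probes and 8 of 39072 probes passed for HS minus TN, and the EGLN2 A_72_P323278 difference was 0.19 (adjusted p = 0.212), EGLN1 A_72_P590364 0.096 (0.488), EGLN1 A_72_P121321 0.063 (0.580), EGLN2 O9728 0.064 (0.567), HIF1AN 0.11 (0.377) and HIF1A A_72_P585741 0.23 (0.182). The difference of HIF1A A_72_P585741 was thus 0.23 in place of 0.26, and that of EGLN2 A_72_P323278 0.19 in place of 0.30. With the neutrophil mean in the model 2 probes passed, EGLN2 A_72_P323278 and HIF1A A_72_P585741. Without F1 pigs, 0 of 21 member probes and 0 of all 39072 passed, with EGLN2 A_72_P323278 at 0.24 (adjusted p = 0.225). The part of cell composition in these differences was not tested.

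**Figure D4:**
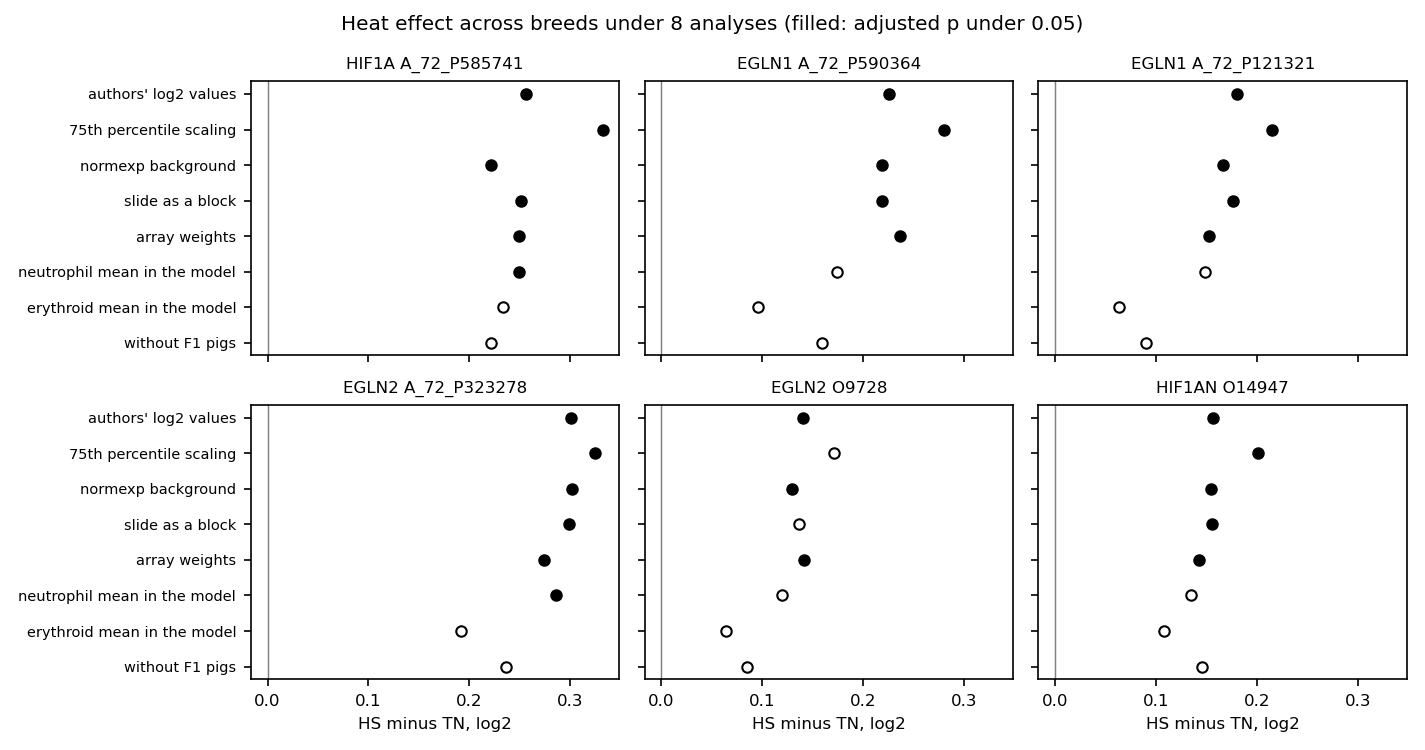
HS minus TN across breeds (x axis, log2) for the 6 member probes that passed the test, under 8 analyses (y axis); filled symbols have an adjusted p under 0.05. All values are above 0, and none is filled with the erythroid mean in the model or without F1 pigs.

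Between pigs of the same group, several members varied together or with the cell lists. The brightest probe of each gene was used, with group means subtracted, over 35 pigs, and p-values came from 100000 permutations within groups, adjusted over 36 pairs of members and 63 pairs of a member and a cell list. Of the 36 pairs, 3 passed by Pearson's r and 2 of them also by rank. HIF1A A_72_P280249 and ARNT A_72_P665317 ran in opposite directions, Pearson's r = -0.72 (permutation p = 5e-05, adjusted 0.0018), Spearman's rho = -0.63 (permutation p = 0.00036, adjusted 0.013). Without the 2 pigs farthest from the median of the first, r was -0.60, and with slide removed -0.75 (within the 4 larger slides -0.91 to -0.25). This did not hold in CR, where r was 0.024, against -0.89 in both F1 and LW. HIF1A A_72_P585741, which did not follow A_72_P280249 between pigs, was not compared with ARNT. ARNT A_72_P665317 and EGLN1 A_72_P532618 rose and fell together, Pearson's r = 0.61 (permutation p = 0.0003, adjusted 0.0054), Spearman's rho = 0.61 (permutation p = 0.00077, adjusted 0.0139). Without the 2 pigs farthest from the median of the first, r was 0.57, and with slide removed 0.60 (within the 4 larger slides 0.62 to 0.83). This EGLN1 probe was not called across breeds. Its r was 0.81 with A_72_P590364, 0.48 with A_72_P292179 and 0.41 with A_72_P121321, which were not compared with ARNT. EPAS1 and VEGFA passed by r alone, Pearson's r = 0.59 (permutation p = 0.00151, adjusted 0.0181), Spearman's rho = 0.50 (permutation p = 0.00521, adjusted 0.0625), and r fell to 0.37 without 2 pigs and ranged from -0.37 to 0.80 within slides. The VEGFA probe was well above background on only 16 of 35 arrays.

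Of the 63 relations with cell lists, 8 passed by r and 6 of them also by rank. HIF1A A_72_P280249 was lower in pigs with higher platelet genes, Pearson's r = -0.73 (permutation p = 2e-05, adjusted 0.00063), Spearman's rho = -0.75 (permutation p = 1e-05, adjusted 0.000315). Without the 2 pigs farthest from the median of the first, r was -0.69, and with slide removed -0.73 (within the 4 larger slides -0.82 to -0.67). It was also lower where the list of endothelial genes was higher, Pearson's r = -0.78 (permutation p = 1e-05, adjusted 0.00063), Spearman's rho = -0.82 (permutation p = 1e-05, adjusted 0.000315); of its 4 measured genes, PECAM1 and VWF are also expressed by platelets. Without the 2 pigs farthest from the median of the first, r was -0.75, and with slide removed -0.79 (within the 4 larger slides -0.92 to -0.73). HIF1A A_72_P280249 was higher in pigs with a higher T cell list, Pearson's r = 0.50 (permutation p = 0.00053, adjusted 0.0111), Spearman's rho = 0.53 (permutation p = 0.00169, adjusted 0.0266). For this pair r was 0.56 without the 2 pigs farthest from the median of the first and -0.10 to 0.73 within slides. The sign thus turned on a slide. HIF1A A_72_P585741 was not compared with the cell lists. EGLN1 A_72_P532618 was lower where erythroid genes were higher, Pearson's r = -0.59 (permutation p = 0.00211, adjusted 0.0222), Spearman's rho = -0.65 (permutation p = 0.00028, adjusted 0.00588), although in LW r was -0.029. Here r was -0.59 without the 2 pigs farthest from the median of the first and -0.79 to -0.27 within slides. EGLN2 was higher with the T cell list, Pearson's r = 0.59 (permutation p = 0.00103, adjusted 0.0162), Spearman's rho = 0.53 (permutation p = 0.00321, adjusted 0.0404). The value was 0.53 without the 2 pigs farthest from the median of the first and 0.17 to 0.71 within slides. VEGFA was higher with the neutrophil list, Pearson's r = 0.54 (permutation p = 0.00129, adjusted 0.0163), Spearman's rho = 0.50 (permutation p = 0.00398, adjusted 0.0418). Its r was 0.47 without the 2 pigs farthest from the median of the first and -0.12 to 0.66 within slides. Here too the sign turned on a slide. EGLN1 A_72_P532618 with the T cell list (r = 0.52, within slides 0.11 to 0.81) and VEGFA with the erythroid list (r = 0.48, within slides -0.36 to 0.72) passed by r only. The EGLN1 probes called across breeds were not compared with the cell lists.

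The genes whose deviations from group means were most like those of a member, of 8477 named genes, are given as a description over 35 pigs. HIF1A A_72_P280249 was most like SYNC (r = 0.96), OTUD4 (0.96) and NFYA (0.96), and ARNT like EP300 (0.89), XPC (0.88) and STK10 (0.88). EP300, a histone acetyltransferase, is a coactivator that HIF recruits. EGLN2 was most like PIGT (0.92), CARS2 (0.91) and RAB24 (0.89), EGLN1 like GHDC (0.83), POU2F1 (0.82) and ETFDH (0.81), and EGLN3 like STX11 (0.77), PAPSS1 (0.75) and PHKA1 (0.73). VEGFA was most like CCDC167 (0.71), DLGAP5 (0.69) and RFESD (0.69), HIF1AN like ZFAND1 (0.68), TMEM9B (0.65) and PXMP4 (0.64), EPAS1 like PHF3 (0.62), DZIP1 (0.60) and ASPH (0.60), and ADM like LSS (0.62), NCAM1 (0.59) and MTRF1L (0.56). The values for HIF1AN, EPAS1 and ADM were the lowest of the 9.

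Other genes of the pathway were read by their brightest probe in the heat effect across breeds. In that test, 0 of all 39072 probes passed without F1 pigs and 8 with the erythroid mean in the model. Of 15 measured partners and turnover factors of HIF (of 20 listed), 4 were higher in HS and 1 was lower, beside 20.1% and 34.8% of all probes called higher and called in all, with a median of 0.029 on the log2 scale. Those higher were RACK1 (0.31, SE 0.070, adjusted p = 0.00205), a scaffold that promotes the breakdown of HIF-1 alpha without need of oxygen, EP300 (0.31, adjusted p = 0.0267), P4HTM (0.30, adjusted p = 0.00888), a transmembrane prolyl hydroxylase, and VBP1 (0.14, adjusted p = 0.0426), a VHL-binding protein. ARNT2, a relative of ARNT, was lower (-0.36, SE 0.10, adjusted p = 0.00956), with -0.72 in F1 and -0.029 in LW. CREBBP, CUL2, ELOC, CITED2 and 6 others did not pass, with values from -0.27 to 0.15.

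Of 10 measured ligands and receptors of VEGF and adrenomedullin (of 13 listed), 2 were higher and 3 lower, with a median of -0.10. The called share of 50% stood beside 34.8% of all probes (20.1% higher, 14.7% lower). VEGFB, a relative of VEGFA, was higher (0.46, SE 0.11, adjusted p = 0.00239), as was RAMP2 (0.40, adjusted p = 0.0119), a partner of the receptor CALCRL. RAMP1 (-0.64, SE 0.15, adjusted p = 0.00226) and RAMP3 (-0.64, SE 0.17, adjusted p = 0.00468), the other partners of that receptor, were lower, and so was the co-receptor NRP2 (-0.38, adjusted p = 0.0327). Their differences were largest in F1, with -1.16, -1.12 and -0.84. The same differences were -0.53, -0.68 and -0.29 in CR, and -0.23, -0.13 and 0.00078 in LW. The receptor CALCRL itself and the VEGF receptors FLT1 and KDR did not pass, with 0.16, -0.18 and -0.033.

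Of 52 measured HIF target genes (of 65 listed), 13 were higher, 11 lower and 28 did not pass. Thus 46.2% were called, beside 34.8% of all probes (20.1% higher, 14.7% lower). The median was 0.056 against 0.060 over all probes. Among those higher were glycolytic enzymes and regulators, ENO1 (0.50, SE 0.080, adjusted p = 0.00159), PFKFB4 (0.38, adjusted p = 0.00435) and PDK1 (0.33, adjusted p = 0.00833), the last a kinase that shuts pyruvate out of the mitochondrion, and the transcription factors ETS1 (0.39, adjusted p = 0.0104) and RBPJ (0.33, adjusted p = 0.00159). Those with the largest fall were TFRC, the transferrin receptor (-1.11, SE 0.43, adjusted p = 0.0422), MXI1 (-0.97, SE 0.23, adjusted p = 0.00290), BNIP3L, which clears mitochondria from maturing red cells (-0.75, SE 0.20, adjusted p = 0.00604), TF (-0.60, adjusted p = 0.00392) and PLOD2 (-0.59, adjusted p = 0.00578). MXI1, BNIP3L, TF and PLOD2 differed most in F1 (-1.48, -1.43, -1.05 and -1.32) and less in LW (-0.46, -0.28, -0.21 and -0.31). TFRC did not, with -0.94 in F1 and -1.23 in LW. TFRC and BNIP3L are also strongly expressed in immature red cells. Of the 19 measured erythroid genes, 9 were lower and 1 was higher, as given above, and a link to the fall of TFRC and BNIP3L was not tested. The glycolytic genes LDHA (-0.031) and PGK1 (0.071) and the glucose transporter SLC2A1 (-0.11) did not pass.

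**Figure D5:**
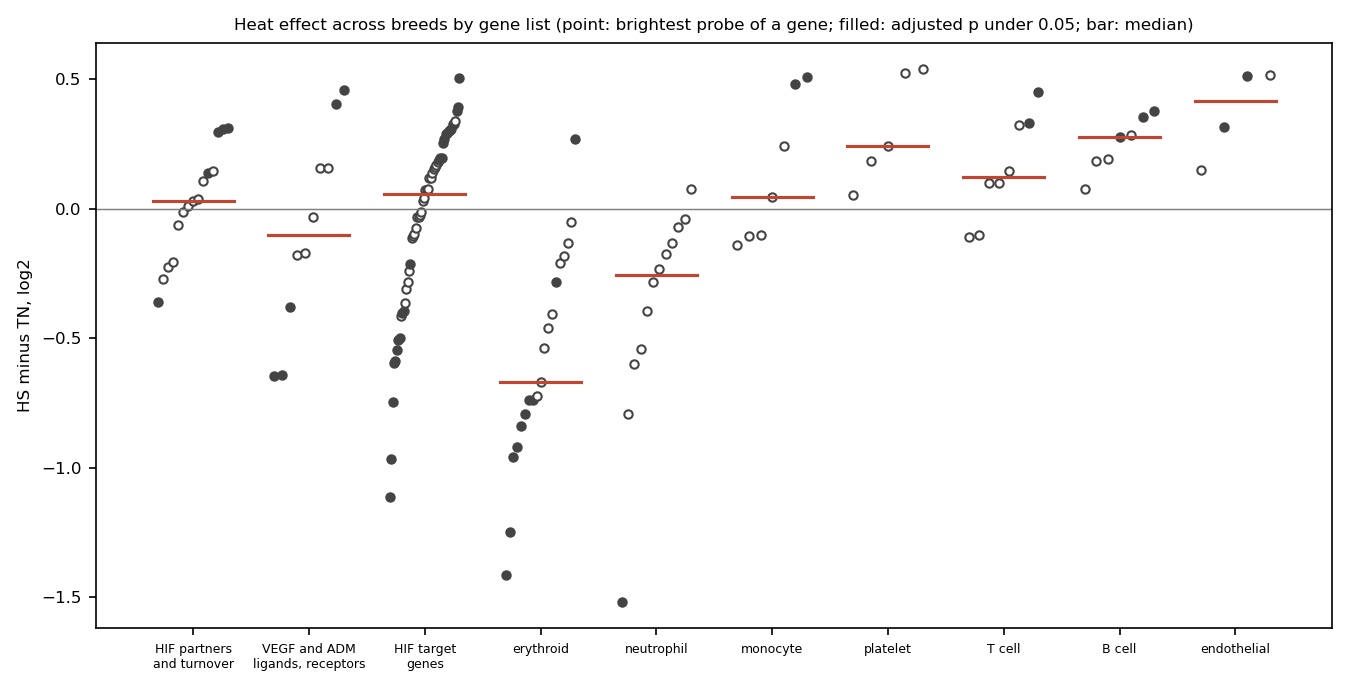
HS minus TN across breeds (y axis, log2) for genes of 3 pathway lists and 7 cell lists (x axis); each point is the brightest probe of 1 gene, filled where the adjusted p was under 0.05, and the bar is the median of the list. HIF target genes spread from -1.11 to 0.50 around a median of 0.056, and the erythroid list has a median of -0.67.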

How the data were processed

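Whole-blood RNA of 35 pigs was read on one-colour Agilent arrays whose probes hold 60 bases each. The scans, per the file headers, were read with Feature Extraction 10.10.1.1, and the deposited scanner files hold median, mean and processed intensity per spot. The authors made the deposited table of log2 values from the median intensity by quantile normalization, followed by a filter on expressed probes. The rule of that filter is not given in the sources used here, and the table covers 39072 of 60305 probes. Values recomputed from the scanner files had a Pearson correlation of 0.99997 with it.

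The authors' log2 values were fitted in limma 3.58.1 (R 4.3.3; lmFit, eBayes), with breed and climate for the climate and breed effects over all 35 pigs, and with 6 group means for effects within breeds and their interaction. Tests were two-sided, with Benjamini-Hochberg adjustment over 39072 probes and a threshold of 0.05. The scripts were tested on simulated data. Pen, day of slaughter, father and mother, which the study had as random effects, could not be fitted without labels. The study's model with these effects called far fewer probes in blood than the 13601 called here for HS minus TN across breeds. Groups came from the labels. The members and gene lists were chosen with earlier results of these data known.

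All probes of a member are given. Elsewhere the probe with the highest mean stands for a gene. Of each pathway list, up to 5 genes called higher and 5 called lower with the largest change were named, and the LDHA, PGK1, SLC2A1, CALCRL, FLT1, KDR, CREBBP, CUL2, ELOC and CITED2 values were chosen after the values were seen, as examples that did not pass. Well above background is the judgement of the scanner software. No build was named for the probes, so no coordinates are given. With arrays, the number of pigs limits the precision. Permutations were run in Python 3.11.15 with NumPy 2.4.6 and SciPy 1.17.1. Alternatives were 75th percentile scaling, normexp background (offset 50), other filters, slide as a block, array weights, erythroid or neutrophil means as covariates, fits without F1 pigs and fits without 1 pig.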

Additional observations from a re-analysis of the deposited data

Results flagged for a closer look

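In 7 of 126 combinations of a probe and a group (5.56%), 1 pig lay far from the others, where chance gives about 5%. LW HS pig 5 was high for HIF1A A_72_P280249 (8.75, others 6.93 to 7.60) and for HIF1A A_72_P213487 (8.03, others 7.37 to 7.62). CR TN pig 4 was low for HIF1A A_72_P585741 (6.23, others 6.89 to 7.16), and without it HS minus TN in CR was -0.14 in place of 0.021. F1 TN pig 6 was low for EPAS1 O10512 (6.85, others 7.79 to 8.27). LW TN pig 3 was high for ARNT O5420 (6.47, others 5.27 to 5.40), a dim probe. LW HS pig 3 was high for EGLN2 O9728 (12.69, others 12.45 to 12.54), and F1 TN pig 2 was low for ADM A_72_P146551 (4.94, others 5.28 to 5.47).

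For EPAS1 A_72_P441713, all 6 CR HS pigs were above the CR TN mean and all 6 F1 HS pigs were below the F1 TN mean. The differences were 0.19 and -0.31 on the log2 scale. The F1 side rested on F1 TN pig 3, at 7.30 beside 6.10 to 6.69 in the other 5 F1 TN pigs: without it the F1 difference was -0.14 and 2 of 6 F1 HS pigs were above the TN mean. The difference between breeds did not pass the test, since the interaction of breed and climate had an unadjusted p of 0.0966 and an adjusted p of 0.407 by limma.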

How the results depend on the processing

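No paired analysis was possible because no number in the labels is shared between groups and litter and pen are not given. The pig numbers used here are only names. For HS minus TN across breeds, 6 of 21 member probes were called, against 2 with the neutrophil mean in the model, 0 with the erythroid mean and 0 without F1 pigs, and 4 to 8 when 1 pig was left out. In F1 the 6 calls became 0 with the erythroid mean and 2 to 7 when 1 pig was left out. With array weights 1 probe was called in LW (HIF1A A_72_P585741) and 1 for CR minus LW (ADM O11846), against 0. Counts under the other alternatives stayed within 1.5 times, and whole-table calls with the erythroid mean fell from 13601 to 8 across breeds and from 15108 to 922 in F1. By 1 probe per gene, 2 members were called (EGLN2 and HIF1AN), and by the mean of all its probes 3 (with EGLN1).

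The sign across breeds turned for probes that were not called. EGLN3 was -0.011 with 75th percentile scaling, -0.075 with the erythroid mean, -0.036 with the neutrophil mean, -0.0098 with array weights and -0.092 without F1 pigs, and -0.014 to 0.052 when 1 pig was left out. HIF1A A_72_P280249 was 0.064 with the neutrophil mean and -0.12 to 0.061 when 1 pig was left out, and A_72_P213487 was -0.028 with the erythroid mean and -0.073 without F1 pigs. EPAS1 O10512 was 0.028 with the erythroid mean. Without F1 pigs, EPAS1 A_72_P441713 was 0.041, EGLN1 A_72_P292179 -0.0030 and ADM A_72_P146551 -0.014. In F1, leaving out 1 pig gave -0.027 to 0.46 for HIF1A A_72_P280249 and -0.19 to 0.28 for O277. Of called probes, HIF1A A_72_P585741 was -0.085 within slide 1 and EGLN2 O9728 -0.018 within slide 4. The cause was not tested. Dim probes of VEGFA, ADM and ARNT limit what can be read from them.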
